A study of Homo sapiens with 9 samples.

Results

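Transfecting an unrelated small RNA into BT-549 cells was compared with the transfection reagent alone: 3 arrays of cells given a negative control small RNA were set against 3 arrays of mock-transfected cells, 6 of the 9 arrays of the series. BT-549 is an established human breast cancer line of the triple-negative type, grown in culture. Mock cells received the lipid reagent (Lipofectamine RNAiMAX) without RNA, and the negative control cells received 50 nM of the negative control RNA with the same reagent. In both groups the medium was replaced at 24 h and total RNA was taken at 72 h. The remaining 3 arrays, from cells given 50 nM of a synthetic mimic of miR-150-5p, entered the fit to estimate the spread and are set beside the results as levels. The sequence of the negative control RNA was not used here. RNA was read on Affymetrix Human Gene 2.0 ST arrays, which carry probe sets (features) along whole transcripts. Of 53617 features, 16098 had exactly 1 gene symbol, and taking the brightest feature of each of the 779 genes with several left 14884 genes. Levels are log2 signals per array, and changes are the negative control mean minus the mock mean, ± SE, on that scale.

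A transfected double-stranded small RNA can act on a cell in several known ways. It can enter the Argonaute silencing complex and lower messages that match its seed, it can occupy machinery that the cell's own microRNAs use, and it can be read as foreign by sensors such as RIG-I, MDA5, TLR3 and PKR, which switch on interferon genes. Negative control RNAs are designed to match no human message closely, so that they stand in for whatever the delivery of any small RNA does to the cells.

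The cells had the profile of their line in part. Array medians over all features lay between 2.44 and 2.48 on the 6 arrays, which RMA makes alike. Array weights estimated by limma ran from 0.59 for negative control 2 to 1.43 for mock 1. Pearson's r across genes, which are not independent replicates, was 0.981 to 0.986 within the 2 groups and 0.977 to 0.986 between them. VIM (9.01 in mock), FN1 (9.18), AXL (8.12) and CD44 (7.43), which mark mesenchymal breast lines, were high, and ESR1 (2.11), PGR (1.77) and EPCAM (1.93) were low. Of the luminal markers, KRT19 (2.49) was low and KRT8 (4.10) intermediate, while KRT18 (7.48) and GATA3 (5.84) were not low. Markers of endothelium (PECAM1 2.08, VWF 2.43), fibroblasts (DCN 1.57, LUM 1.74), fat (PLIN1 2.44) and monocytes (CD14 2.12) were low, and CD68, which many cancer lines express, was at 6.72. Of 31 markers looked for, 13 were not analysed here. Small nucleolar and Cajal body RNAs (23 genes) had a mean of 6.78 on mock 2 and 6.83 on negative control 2, against 5.62 and 5.64 on the other mock arrays and 5.91 and 5.87 on the other negative control arrays. Since no label says that a group's arrays came from separate cultures, each p-value here compares a change with the scatter of these samples, which may be technical.

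The negative control RNA went with a change in 96 of 14884 genes, or 0.645% (limma, Benjamini-Hochberg adjusted p under 0.05). Of these, 25 rose (0.168%) and 71 fell (0.477%). In each of the 96 the 3 arrays of one group all lay above the 3 of the other, which was true of 12% of all genes. The falls were also the larger changes: 65 genes fell and 22 rose by at least 1.5-fold (0.585% of genes together), and 15 fell and 3 rose by at least 2-fold (0.121%). Without the adjustment, 1643 genes (11%) had a p under 0.05, 823 above 0 and 820 below, so that the surplus of falls belongs to the strongest calls. The changed genes were well expressed: their median mock level was 5.66 for those that rose and 6.42 for those that fell, against 3.35 for all genes. The median change of all genes was 0.0076. A second quantile normalization of the arrays raised the count to 136 and the share of rises from 26.0% to 41.2%.

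**Figure D1:**
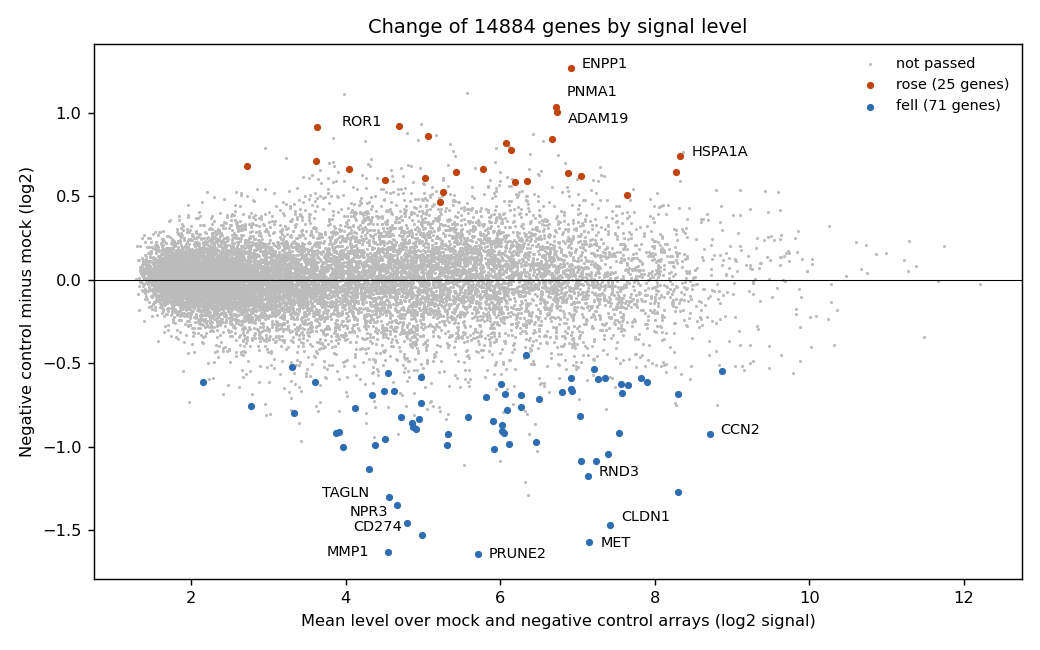
Each point is 1 of 14884 genes, with its mean level over the 6 mock and negative control arrays (log2 signal) on the x axis and its change, negative control minus mock (log2), on the y axis. Orange points mark the 25 genes that rose, blue points the 71 that fell and grey points genes that did not pass; the largest fall, PRUNE2, was -1.64 and the largest rise, ENPP1, 1.27.

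The count rests on few arrays. It was 21 without mock 1, 51 without mock 3, 52, 46 and 42 without negative control 1, 2 or 3, and 57 without mimic 3. The replicate numbers paired the arrays by their values (the deviations of same-numbered mock and negative control arrays had r of 0.152, 0.225 and 0.147 across genes), and 61 genes passed with the number as a block on all 9 arrays. The pairing was looked for in these 2 groups only. A block limited to them, with the mimic arrays in the fit, was chosen after seeing the data and kept 89 of the 96 calls. Of the genes given below as not passing with the block on all 9 arrays, GFRA1, DDIT3, JAG1, DTL and ESYT2 did not pass with it either (limma adjusted p of 0.0501 to 0.063). The others did. With the block and the 6 arrays alone, limma called 0 genes at an adjusted p under 0.05, while 1735 had an unadjusted p under 0.05 and the 96 genes had adjusted p of 0.051 to 0.20. Calls of 19 genes were kept without each of the 9 arrays in turn: PRUNE2, MMP1, MET, CD274, CLDN1, NPR3, the MIR329-1 locus, TAGLN, RND3, PAPSS2, MSANTD3-TMEFF1, NPTX1, CCN2, DOCK11, VLDLR and TNC among the falls and ENPP1, PAQR5 and CAST among the rises. Of these 19, PRUNE2 (adjusted p = 0.053), DOCK11 (0.051), TNC (0.066), CCN2 (0.079), PAQR5 (0.053) and CAST (0.053) did not pass in the fit on the 6 arrays alone without a block, which called 18 genes. Of the 96 calls, 17 were kept in it. For other genes named below, the arrays whose absence ended the call are given.

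Several of the largest falls were in proteins of the cell surface. MET, the receptor for hepatocyte growth factor, had levels of 8.02, 7.81 and 7.98 on the mock arrays and 6.47, 6.21 and 6.43 on the negative control arrays. These groups lay more than 1 log2 unit apart at their nearest arrays, and MET fell by 1.57 ± 0.09 (2.96-fold, adjusted p = 0.00015). CLDN1, a claudin of tight junctions, was at 8.31, 7.80 and 8.37 in mock and 6.62, 6.68 and 6.78 in the negative control, a change of -1.47 ± 0.15 (adjusted p = 0.0039). NPR3, the clearance receptor for natriuretic peptides, went from 5.40, 5.68 and 5.47 to 4.32, 4.01 and 3.86, a fall by 1.45 ± 0.12 (adjusted p = 0.0015). VLDLR, a receptor for lipoproteins and reelin, fell by 0.92 ± 0.11 (adjusted p = 0.0071). EFNB2, the ephrin-B2 ligand of Eph receptors, fell by 0.99 (adjusted p = 0.018), and GFRA1, the co-receptor for GDNF, by 0.88 (adjusted p = 0.041). The EFNB2 call ended without mock 1 or negative control 1 or 3 (adjusted p up to 0.085), and that of GFRA1 without any 1 array (up to 0.18) and with the replicate block on all 9 arrays (0.11).

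Among receptor tyrosine kinases and their ligands few genes passed. Of 54 measured receptors and ligands, MET fell, ROR1 rose and 52 did not pass, with a median of -0.013 against 0.0076 for all genes. Among the receptors, EPHA4 was at -0.80 (adjusted p = 0.24) and EGFR at -0.46 (adjusted p = 0.39). EGFR had 7.60, 7.08 and 7.77 in mock and 7.03, 6.79 and 7.27 in the negative control, groups that overlap. AXL, at 8.01, 8.06 and 8.30 against 8.40, 7.85 and 8.45, had groups that overlap as well. The negative control arrays lay below all mock arrays in 11 of the 54 genes and above in 2, where 5.78% and 6.21% of all genes did so. At an unadjusted p under 0.05, 11 lay below 0 and 2 above, where 11% of all genes passed in either direction.

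CD274 encodes PD-L1, the ligand that restrains T cells through PD-1, and its transcription is known to respond to interferon. Its levels were 5.68, 5.60 and 5.98 in mock and 4.25, 4.35 and 4.09 in the negative control, a fall by 1.52 ± 0.14 (2.88-fold, adjusted p = 0.0025). PDCD1LG2, the neighbouring gene for the second PD-1 ligand, was at 5.31, 5.16 and 5.57 against 4.75, 4.83 and 4.54, groups that did not overlap, with -0.64 ± 0.13 (adjusted p = 0.064). CD274 was the one gene called among 14 measured checkpoint and antigen presentation genes, whose median was -0.0024. B2M, the constant chain of MHC class I, had a change of -0.01 (adjusted p = 0.99). The promoter of CD274 is shown because it was the only one, among the 55 promoters of genes that fell, to hold the interferon-stimulated response element searched for. It was searched on both strands as GAAA, any 2 bases and GAAA again. The window, from RefSeq on GRCh38.p14, runs from 250 bases before to 50 after the start, chr9:5450292-5450591 on the plus strand, with both overlapping matches, at -208 to -199 and -202 to -193 from the start, in capitals.

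CD274: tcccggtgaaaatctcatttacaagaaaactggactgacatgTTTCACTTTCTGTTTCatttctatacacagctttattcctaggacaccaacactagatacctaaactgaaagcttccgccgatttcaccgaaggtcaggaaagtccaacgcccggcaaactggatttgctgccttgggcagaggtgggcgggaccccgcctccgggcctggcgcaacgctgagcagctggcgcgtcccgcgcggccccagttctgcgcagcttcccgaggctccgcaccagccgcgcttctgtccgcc

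The motif was in 2.94% of the 10749 promoters of genes tested, 1.82% of those of genes that fell and 0% of the 19 of genes that rose. A match describes the letters only.

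Secreted proteases and matrix proteins included the clearest fall by p. MMP1, interstitial collagenase, had levels of 5.35, 5.30 and 5.44 in mock and 3.83, 3.74 and 3.64 in the negative control. It fell by 1.63 ± 0.09, or 3.09-fold (adjusted p = 0.0001). TNC, the matrix glycoprotein tenascin-C, went from 6.41, 6.43 and 6.53 to 5.79, 5.56 and 5.41, a change of -0.87 ± 0.10 (adjusted p = 0.0071). HTRA1, a secreted serine protease, fell by 0.54 (adjusted p = 0.048) and CCDC80, a matrix protein, by 0.53 (adjusted p = 0.030). ADAM19, a membrane metalloprotease-disintegrin, moved the other way: 6.24, 6.05 and 6.40 became 7.27, 7.05 and 7.40, a rise of 1.00 ± 0.12 (adjusted p = 0.0089). Of 26 measured matrix metalloproteinase, ADAM and plasminogen genes, MMP1 fell, ADAM19 rose and 24 did not pass (median 0.037), so the 2 changes were not those of the class. MMP14, the membrane collagenase, was at -0.15 (adjusted p = 0.72). A separate matrix and adhesion list, which did not include TNC, CCDC80 or FN1, had 23 of its 66 genes measured. Of these 23, 0 passed, 3 had an unadjusted p under 0.05 (11% of all genes did) and 17 lay below 0 (median -0.071). NID2, nidogen-2, was at -0.44 (adjusted p = 0.27) and FBN1, fibrillin-1, at -0.33 (adjusted p = 0.38). FN1, fibronectin, was at 9.24, 8.83 and 9.48 against 8.46, 8.16 and 8.69, groups apart, with -0.75 ± 0.17 (adjusted p = 0.11). The call for ADAM19 ended without mock 1 (adjusted p = 0.057), that for HTRA1 without any 1 array (up to 0.14), and that for CCDC80 without any but mock 2 and mimic 1 (up to 0.15). With the block on all 9 arrays HTRA1 (0.076) and CCDC80 (0.090) did not pass.

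**Figure D2:**
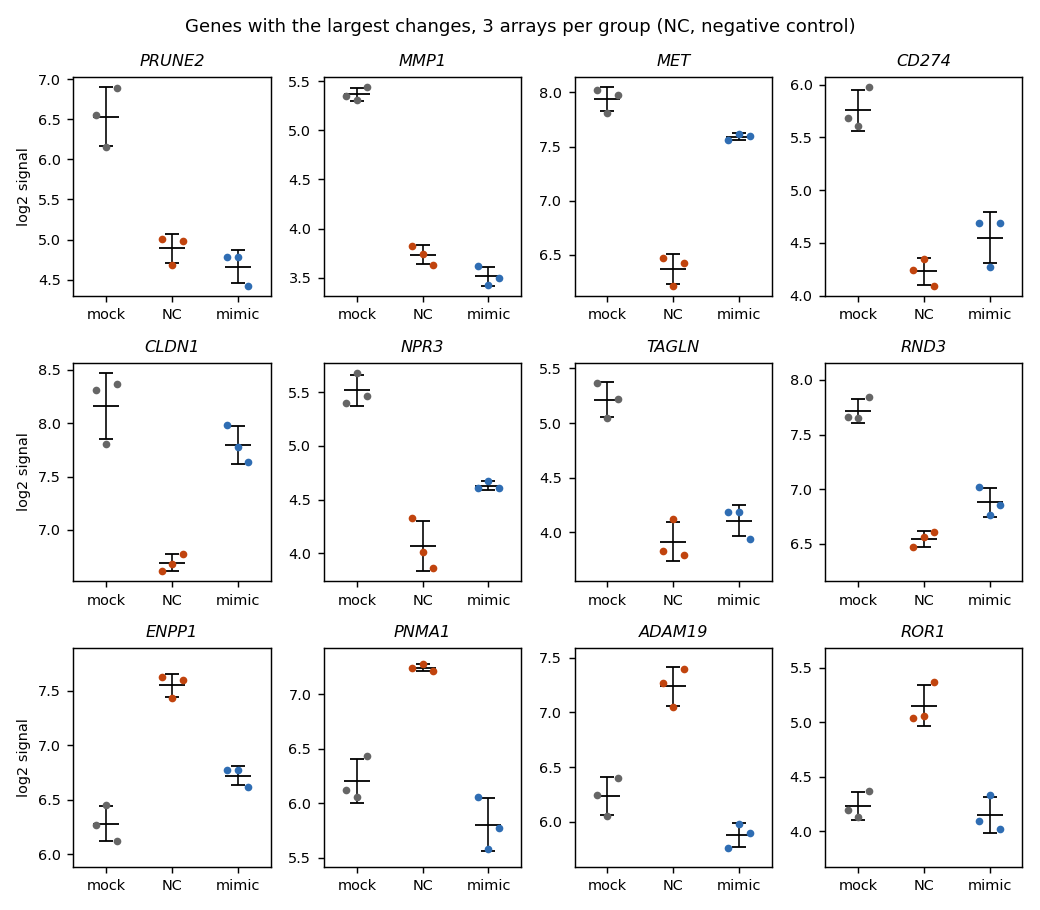
Levels (log2 signal) of 12 genes on each of the 9 arrays, with 3 points per group of mock, NC (negative control) and mimic, the horizontal bar at the group mean and error bars of 1 SD. In each of the 12 the NC points lie clear of the mock points, as for MMP1 (3.64 to 3.83 against 5.30 to 5.44) and ENPP1 (7.43 to 7.63 against 6.13 to 6.45).

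Genes of the actin cytoskeleton and of contraction lay mostly below mock. TAGLN, the actin-binding protein transgelin, was at 5.37, 5.05 and 5.22 in mock and 3.83, 4.12 and 3.79 in the negative control, a fall by 1.30 ± 0.12 (2.46-fold, adjusted p = 0.0026). CALD1, caldesmon, fell by 0.99 ± 0.15 (6.10, 5.42 and 5.92 against 4.87, 4.80 and 4.80, adjusted p = 0.021). MYLK, the kinase that phosphorylates myosin light chain, fell by 0.52 ± 0.09 (adjusted p = 0.041). These were 3 of 16 measured members, where 0.477% of all genes fell. None rose, and the list's median was -0.25 against 0.0076 for all genes. Of the 16, 13 lay below 0, as did 7114 of all 14884 genes. At an unadjusted p under 0.05 there were 8 of these 13 and 1 member above 0, where 11% of all genes passed in either direction. In 8 of the 16 the negative control arrays lay wholly below mock and in 1 above, against 5.78% and 6.21% of all genes. Tropomyosin TPM1 was at -0.59 (adjusted p = 0.29) and PDLIM5, an actin-anchored scaffold, at -0.57 (adjusted p = 0.15). TAGLN2, a relative of TAGLN, was at 5.24, 5.11 and 5.38 against 5.63, 5.69 and 5.65, the 1 member with the negative control above (0.41, adjusted p = 0.087). ACTA2, MYL9 and the filamins were not analysed here. The CALD1 call ended without any of the 6 arrays compared except mock 2, and without mimic 3 (adjusted p up to 0.090), and that of MYLK without any 1 array (up to 0.17) and with the block on all 9 arrays (0.097).

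PRUNE2, a protein with a BCH domain, had the largest fall of all genes tested, by 1.64 ± 0.18 or 3.13-fold (adjusted p = 0.0065). Its levels were 6.55, 6.16 and 6.89 in mock and 5.01, 4.68 and 4.98 in the negative control. CALU, the calcium-binding protein calumenin of the secretory pathway, was among the brightest of the changed genes, at 8.89, 8.66 and 9.26 against 7.41, 7.90 and 7.68 (a fall by 1.27 ± 0.16, adjusted p = 0.010). PAPSS2, which makes the sulfate donor PAPS, went from 4.82, 4.83 and 4.94 to 3.75, 3.68 and 3.76, the tightest of these sets, and fell by 1.13 ± 0.11 (adjusted p = 0.0032). NPTX1, neuronal pentraxin, fell by 0.95 ± 0.09 (adjusted p = 0.0025). MSANTD3-TMEFF1, a readthrough transcript whose signal cannot be told apart from that of its overlapping genes, fell by 0.98 ± 0.10 (adjusted p = 0.0039). UGDH, the enzyme that makes UDP-glucuronic acid, fell by 0.68 (adjusted p = 0.041). CALU was not called without mock 1 (adjusted p = 0.063), and UGDH was called only without mock 2 when 1 array was left out (up to 0.18 otherwise) and not with the block on all 9 arrays (0.074).

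CCN2, connective tissue growth factor, is a secreted protein and a classical target of both TGF-beta signalling and the YAP-TEAD complex. It was at 9.06, 9.04 and 9.42 in mock and 8.15, 8.23 and 8.37 in the negative control, a fall by 0.92 ± 0.11 (adjusted p = 0.0095). A second, dimmer CCN2 feature (mean level 4.41) had a change of -1.76 ± 0.25. CRIM1, a transmembrane antagonist of bone morphogenetic proteins, fell by 1.08 ± 0.14 (7.90, 7.60 and 7.85 against 6.99, 6.54 and 6.57, adjusted p = 0.012). FST, follistatin, which traps activins, fell by 1.00 ± 0.15 (adjusted p = 0.018), and SMURF2, a ubiquitin ligase of TGF-beta receptors and SMADs, by 0.69 ± 0.11 (adjusted p = 0.022). These were the 4 genes called among 28 measured TGF-beta and BMP genes, where 0.645% of all genes were called. Of the 28, 0 rose and 17 lay below 0 (median -0.045). Of 18 measured Hippo pathway genes and YAP targets, CCN2 and CRIM1 fell and 16 did not pass, 8 of all 18 above 0 (median -0.054). VGLL3, a TEAD cofactor that was not on that list, fell by 0.81 ± 0.12 (adjusted p = 0.018). The CRIM1 call ended without mock 1 or negative control 3 (adjusted p up to 0.078), FST without any mock array or negative control 1 or 2 (up to 0.090), SMURF2 without mock 1, mock 3, negative control 2 or 3 or mimic 3 (up to 0.094), and VGLL3 without mock 1, mock 3 or negative control 1 or 2 (up to 0.11) and with the block on all 9 arrays (0.057).

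The CCN2 promoter is shown because it holds 3 copies of the TEAD-binding letters GGAATG, all on the gene's strand. The window is chr6:131951323-131951622 on the minus strand of GRCh38.p14 (RefSeq), again 250 bases before to 50 after the start, with the matches at -169 to -164, -104 to -99 and -95 to -90 in capitals.

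CCN2: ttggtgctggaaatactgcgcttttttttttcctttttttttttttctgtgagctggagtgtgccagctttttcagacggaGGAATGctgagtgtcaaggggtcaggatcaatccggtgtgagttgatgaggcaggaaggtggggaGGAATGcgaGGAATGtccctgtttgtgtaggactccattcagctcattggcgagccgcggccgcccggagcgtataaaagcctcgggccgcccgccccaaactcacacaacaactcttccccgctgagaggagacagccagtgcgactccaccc

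The letters were in 16.4% of the promoters of genes that fell, 21.1% of those of genes that rose and 11.7% of all. This motif was chosen after the values were seen.

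Amino acid metabolism gave a further group below mock. ASNS, asparagine synthetase, a target of the stress factor ATF4, had 7.03, 6.98 and 6.83 in mock and 5.71, 6.31 and 5.91 in the negative control, a fall by 0.97 ± 0.14 (adjusted p = 0.015). DDIT3, the stress-induced factor CHOP, fell by 0.91 ± 0.16 (4.40, 4.11 and 4.59 against 3.53, 3.66 and 3.18, adjusted p = 0.048). Of 14 measured amino acid response genes and ATF4 targets these 2 fell and 0 rose, where 0.477% and 0.168% of all genes did. The median was -0.33 and 12 of the 14 lay below 0, as did 7114 of all 14884 genes. In 7 of the 14 the negative control arrays lay below all mock arrays, and in 1, DDIT4, above, against 5.78% and 6.21% of all genes. PHGDH, the first enzyme of serine synthesis, was at 5.00, 4.94 and 5.54 against 3.96, 4.67 and 4.59 (-0.76, adjusted p = 0.21). STC2, stanniocalcin-2, was at -0.71 (adjusted p = 0.24), and ATF4 itself at -0.23 (adjusted p = 0.50). On single arrays, the list's median level relative to the mock mean was -0.57, -0.20 and -0.28 in the negative control and -0.13, -0.15 and 0.22 in mock, so negative control 1 stood lowest and negative control 2 lay near mock 2.

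GARS1, glycyl-tRNA synthetase, the enzyme that charges tRNA with glycine, fell by 1.04 ± 0.14 (8.11, 7.62 and 8.03 against 6.71, 6.97 and 6.96, adjusted p = 0.012). It was the 1 call among 17 measured cytosolic aminoacyl-tRNA synthetases, 13 of which lay below 0 (median -0.26). WARS1, for tryptophan, was at -0.81 ± 0.20 (adjusted p = 0.14), MARS1, for methionine, at -0.64 (adjusted p = 0.18) and CARS1, for cysteine, at -0.42 (adjusted p = 0.11). Negative control arrays lay below mock in 6 of the 17, these 4 among them, and above in 0, against 5.78% and 6.21% of all genes. HARS1 (0.09), KARS1 (0.05) and QARS1 (0.23) were above 0. TARBP1, a tRNA ribose methyltransferase, fell by 1.01 ± 0.18 (adjusted p = 0.048). Earlier results of these data led to the synthetase and amino acid lists, so their direction is not independent evidence. The ASNS call ended without mock 1 or negative control 3 (adjusted p up to 0.093), that of GARS1 without mock 1, mock 3 or negative control 1 (up to 0.078), DDIT3 was called only without mock 2 when 1 array was left out (up to 0.18 otherwise), and TARBP1 only without mock 2 or mimic 2 (up to 0.19). With the block on all 9 arrays DDIT3 (0.12) and TARBP1 (0.11) did not pass.

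**Figure D3:**
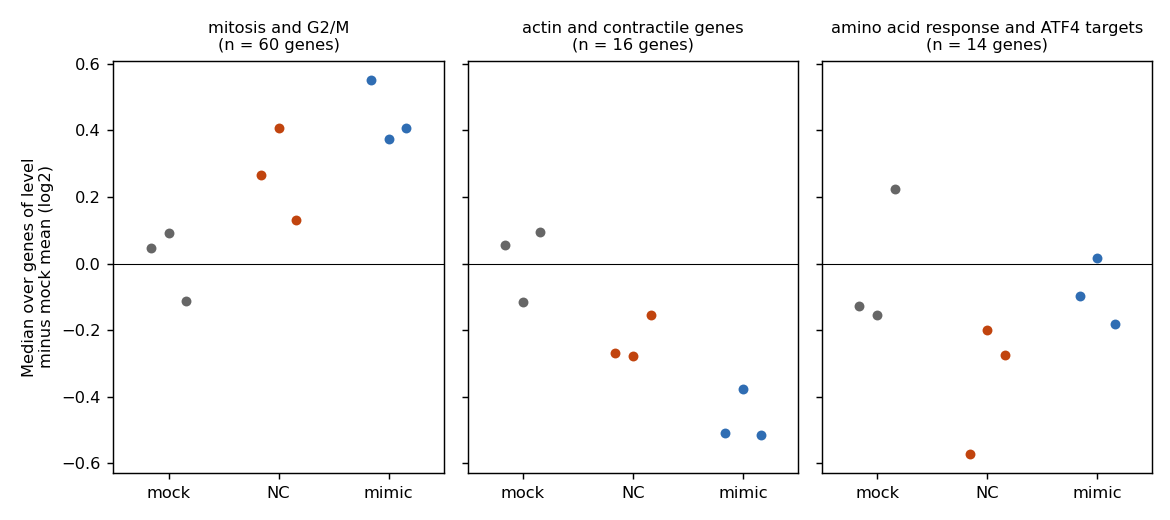
Median over the genes of a list of the level minus the gene's mock mean (log2, y axis) on each of the 9 arrays, for 60 mitosis genes, 16 actin and contractile genes and 14 amino acid response genes. The 3 NC (negative control) arrays lie above the mock arrays for mitosis (0.13 to 0.41 against -0.11 to 0.09) and below them for the other lists.

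Among signalling ligands and stress enzymes, JAG1, a NOTCH ligand, fell by 0.82 ± 0.15 (5.07, 4.98 and 5.32 against 4.17, 4.58 and 4.15, adjusted p = 0.048). It was the only call in 23 measured NOTCH pathway genes (median 0), with HEY1, a target of the pathway, at -0.68 (adjusted p = 0.12). CSF1, the macrophage growth factor, went from 5.24, 5.20 and 5.44 to 4.45, 4.32 and 4.53, a fall by 0.86 ± 0.13 (adjusted p = 0.018). HMOX1, heme oxygenase-1, a target of NRF2, went from 8.10, 8.13 and 8.12 to 7.62, 7.49 and 7.48, a fall by 0.59 ± 0.09 (adjusted p = 0.018). It was the 1 call among 15 NRF2 and redox genes, whose median was 0.032, with GPX4, which removes lipid peroxides, at 0.59 (adjusted p = 0.077). RCAN1, an inhibitor of calcineurin, fell by 0.61 (adjusted p = 0.014). When 1 array was left out, the JAG1 call was kept only without negative control 2 (adjusted p up to 0.16 otherwise), the CSF1 call ended without any of the 6 arrays compared except mock 2 (up to 0.090), HMOX1 without mock 1, mock 3 or negative control 2 or 3 (up to 0.093), and RCAN1 without mock 1, mock 3 or negative control 1 or 3 (up to 0.081). With the block on all 9 arrays JAG1 (0.081), HMOX1 (0.057) and RCAN1 (0.057) did not pass.

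The microRNA loci are of interest because foreign small RNAs share the silencing machinery with them. These features read transcripts of the locus and do not measure the mature microRNA. Of 1098 measured loci, 3 fell and 0 rose, with a median of -0.0028. Over all genes 0.477% fell and 0.168% rose, so the loci had no surplus of calls. MIR329-1, of the large chromosome 14 cluster, had 5.23, 5.22 and 5.55 in mock and 4.05, 4.02 and 3.88 in the negative control, a fall by 1.35 ± 0.13 (adjusted p = 0.0032). It has a near-identical copy beside it, from which the signal may not be told apart. MIR424, on the X chromosome, fell by 0.91 ± 0.17 (6.65, 6.07 and 6.70 against 5.47, 5.49 and 5.74, adjusted p = 0.048). MIR21, an abundant microRNA locus in many carcinomas, fell by 0.62 ± 0.08 (7.96, 7.84 and 7.83 against 7.36, 7.28 and 7.13, adjusted p = 0.012). The MIR21 call ended without mock 1 (adjusted p = 0.081), and MIR424 was called only without mock 2 when 1 array was left out (up to 0.19 otherwise) and not with the block on all 9 arrays (0.092). Mature sequences of these loci are shown to set their seeds apart, 5′ to 3′ from RefSeq, with the seed (bases 2 to 8) in capitals. For MIR21 only the 5p sequence was compared.

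hsa-miR-329-5p: gAGGUUUUcuggguuucuguuuc
hsa-miR-329-3p: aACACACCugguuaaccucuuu
hsa-miR-424-5p: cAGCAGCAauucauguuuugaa
hsa-miR-424-3p: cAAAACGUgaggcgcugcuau
hsa-miR-21-5p: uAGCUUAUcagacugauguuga

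No seed is shared among the 5. The hairpins lie on chromosomes 14 (plus strand), X (minus) and 17 (plus).

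The rises were smaller. ENPP1, an ectoenzyme that cleaves extracellular ATP and the signalling dinucleotide cGAMP, had 6.27, 6.45 and 6.13 in mock and 7.63, 7.43 and 7.59 in the negative control. Its rise of 1.27 ± 0.10 (2.41-fold, adjusted p = 0.0013) was the largest, and it was the 1 call among 7 measured ectoenzymes (median 0.12), with its relative ENPP4 at 0.68 (adjusted p = 0.12). PNMA1, a paraneoplastic Ma antigen, went from 6.12, 6.06 and 6.43 to 7.24, 7.28 and 7.21, a rise of 1.04 ± 0.13 (adjusted p = 0.012). ROR1, the receptor-like kinase that binds WNT5A, went from 4.19, 4.13 and 4.37 to 5.04, 5.05 and 5.37, a rise of 0.92 ± 0.12 (adjusted p = 0.012). It was the 1 call of 30 WNT pathway genes (median 0.011), in which DKK1, a secreted WNT inhibitor, was at -0.78 (adjusted p = 0.11). The PNMA1 and ROR1 calls ended without mock 1 (adjusted p = 0.078 and 0.081).

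Further rises were in genes of varied function. TPD52L1, of the tumour protein D52 family, rose by 0.92 ± 0.14 (2.87, 3.44 and 3.20 against 4.10, 4.08 and 4.09, adjusted p = 0.023), from a low level. ISYNA1, the enzyme that starts inositol synthesis, rose by 0.84 (6.17, 6.18 and 6.41 against 6.89, 7.15 and 7.24, adjusted p = 0.023), and GRAMD1B, a sterol carrier of the endoplasmic reticulum, by 0.82 (adjusted p = 0.048). PAQR5, a membrane progesterone receptor, had 5.50, 5.40 and 5.41 against 6.04, 6.08 and 6.19, a small spread in both groups, and rose by 0.67 ± 0.07 (adjusted p = 0.0066). CAST, calpastatin, the inhibitor of calpain proteases, rose by 0.78 ± 0.10 (5.82, 5.70 and 5.71 against 6.66, 6.50 and 6.41, adjusted p = 0.010). TM4SF18, a membrane protein of the transmembrane 4 family, rose by 0.68 from a mock level of 2.25 to 2.63 (adjusted p = 0.027). The TPD52L1 call was kept only without mock 2 or mimic 1 (adjusted p up to 0.091 otherwise), ISYNA1 ended without mock 1, mock 2, negative control 2 or 3 or mimic 1 (up to 0.13), GRAMD1B without any 1 array (up to 0.19), and TM4SF18 without any but mock 3 (up to 0.14) and with the block on all 9 arrays (0.077).

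Among nuclear proteins, SCML2, a Polycomb-associated protein, rose by 0.86 ± 0.14 (4.62, 4.41 and 4.86 against 5.73, 5.41 and 5.34, adjusted p = 0.030). ZNF695, a zinc finger protein, rose by 0.71 (3.32, 3.49 and 2.97 against 3.96, 3.91 and 4.06, adjusted p = 0.041). It was the 1 rise among 491 genes named ZNF, of which ZNF586 fell by 0.74 (adjusted p = 0.048). ETV4, an ETS transcription factor and known output of ERK signalling, rose by 0.66 (3.68, 3.96 and 3.49 against 4.41, 4.32 and 4.40, adjusted p = 0.034). It was the 1 call in 23 AP-1 and MAP kinase output genes (median 0.067), of which the negative control lay wholly above mock in 5 and below in 1, against 6.21% and 5.78% of all genes. SPRY4, a feedback inhibitor of the pathway, was at 4.77, 5.51 and 5.74 against 5.79, 5.89 and 6.34 (0.67 ± 0.23, adjusted p = 0.31). The early response gene IER3 was at 0.63 (adjusted p = 0.068), JUNB, a partner in AP-1, at 0.50 (adjusted p = 0.26), and the phosphatases DUSP6 and DUSP4, which switch off MAP kinases, at 0.41 (adjusted p = 0.46) and -0.38 (adjusted p = 0.37). When 1 array was left out, SCML2 was called only without mock 3, and ZNF695 and ETV4 only without mock 2 (adjusted p up to 0.14, 0.14 and 0.15 otherwise), and ZNF586 never (up to 0.19). With the block on all 9 arrays, SCML2 (0.076), ZNF695 (0.093), ZNF586 (0.12) and ETV4 (0.089) did not pass.

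HSPA1A and HSPA1B encode the inducible HSP70 chaperone and are near-identical, so their signals are uncertain as separate genes. HSPA1A had 7.82, 7.97 and 8.09 in mock and 8.63, 8.78 and 8.70 in the negative control, a rise of 0.74 ± 0.10 (adjusted p = 0.012). HSPA1B rose by 0.65 ± 0.10 (adjusted p = 0.021). Their 8 further features had changes from 0.55 to 0.80. Some of those of HSPA1A had the same change and mean level as the feature used, so they are not separate readings. Of 23 measured unfolded protein response and chaperone genes HSPA1A and HSPA1B rose and 21 did not pass (median 0.032). HSPH1, a co-chaperone of HSP70, was at 8.52, 8.10 and 8.30 against 8.55, 8.49 and 8.35 (0.16, adjusted p = 0.70). HSPA1A lost its call without mock 1 or negative control 2 or 3 (adjusted p up to 0.078). HSPA1B lost it without any array but mock 2, mimic 1 or mimic 2 (up to 0.11) and with the block on all 9 arrays (0.080). The HSPA1A promoter is shown for its heat shock element, searched as GAANNTTC on both strands, a motif chosen after the values were seen. The window is chr6:31815293-31815592 on the plus strand of GRCh38.p14 (RefSeq), with the match in capitals.

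HSPA1A: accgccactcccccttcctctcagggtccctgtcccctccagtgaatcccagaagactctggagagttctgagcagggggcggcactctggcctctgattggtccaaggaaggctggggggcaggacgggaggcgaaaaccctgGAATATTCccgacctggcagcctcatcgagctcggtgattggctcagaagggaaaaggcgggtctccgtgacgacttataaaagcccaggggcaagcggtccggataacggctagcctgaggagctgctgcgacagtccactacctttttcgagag

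This motif was in 15.8% of the promoters of genes that rose, which is 3 of 19 promoters with the near-identical pair HSPA1A and HSPA1B, for which it was chosen, among them, in 12.7% of those of genes that fell and 5.28% of all. The other motifs were searched on both strands. The NF-Y box CCAAT was in 52.6% of the promoters of genes that rose, 40% of those of genes that fell and 36% of all. The AP-1 site TGACTCA was in 5.26%, 3.64% and 3.85%. The cell cycle homology region TTTGAA was in 15.8%, 9.09% and 11.8%, and the TATA box TATAAA in 10.5%, 18.2% and 8.49%. The 2 promoters with a TATA box among genes that rose were those of the near-identical pair HSPA1A and HSPA1B. Both of these also hold CCAAT. An E2F site, written TTCCCGC with the forms TTCGCGC and also TTGGCGC, was in 10.5%, 21.8% and 14.8%. With 19 and 55 promoters, these shares rest on 1 to 22 genes each.

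Genes of cell division lay mostly above mock, with few calls. Of 60 measured mitosis and G2/M genes, 0 passed (limma), where 0.645% of all genes did. The median was 0.25 and 56 of the 60 lay above 0, as did 7763 of all 14884 genes. At an unadjusted p under 0.05 there were 21, all above 0, where 11% of all genes passed in either direction. In 22 of the 60 the negative control arrays lay above all mock arrays and in 0 below, where 6.21% and 5.78% of all genes, and 8.49% and 8.14% of the brighter genes (at or above the median signal), did so. PLK1, a kinase that drives entry into mitosis, was at 7.99, 8.03 and 7.83 against 8.37, 8.37 and 8.46 (0.45 ± 0.09, adjusted p = 0.062). CENPQ, a kinetochore protein, had the largest difference (0.79, adjusted p = 0.23), and BIRC5, survivin, was at 0.60 (adjusted p = 0.24). CDC25C, the phosphatase that activates CDK1, was at 0.60 (adjusted p = 0.091), and AURKA, a spindle kinase, at 0.37 (adjusted p = 0.19). MKI67, the proliferation marker Ki-67, was at 0.14 (adjusted p = 0.75), with groups that overlap. The list's median level relative to mock was 0.27, 0.41 and 0.13 on the negative control arrays and 0.05, 0.09 and -0.11 on the mock arrays, so negative control 3 and mock 2 lay close together. INCENP, the scaffold of the chromosomal passenger complex, which was not on the list, rose by 0.53 ± 0.09 (4.91, 4.90 and 5.16 against 5.49, 5.55 and 5.52, adjusted p = 0.030).

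In DNA replication, RRM2, the small subunit of ribonucleotide reductase, rose by 0.59 ± 0.10 (6.10, 6.13 and 5.92 against 6.79, 6.66 and 6.49, adjusted p = 0.041). It was the 1 call among 35 measured G1/S genes, 23 of them above 0 (median 0.12), with the negative control wholly above mock in 10 and below in 1, where 6.21% and 5.78% of all genes and 8.49% and 8.14% of the brighter genes did so. CDK6 was at 0.57 (adjusted p = 0.058) and MCM10, a replication initiator, at 0.69 (adjusted p = 0.24), while MCM4 (-0.20) and CCNE2 (-0.25) lay below 0. DTL, an adaptor of the ubiquitin ligase that destroys the licensing factor CDT1 and not on the list, rose by 0.64 (adjusted p = 0.041). Of 18 DNA repair genes (median 0.14) 0 passed and 3 had an unadjusted p under 0.05, where 0.645% and 11% of all genes did. CLSPN, claspin, was at 0.42 (adjusted p = 0.36) and EXO1, a nuclease, at 5.45, 5.46 and 5.33 against 5.94, 5.93 and 5.84 (0.49, adjusted p = 0.058). When 1 array was left out the calls of RRM2 ended in every case (adjusted p up to 0.14), those of DTL without any but mimic 1 (up to 0.18) and of INCENP without any but mock 3 (up to 0.15). With the block on all 9 arrays DTL (0.092) and INCENP (0.088) did not pass.

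**Figure D4:**
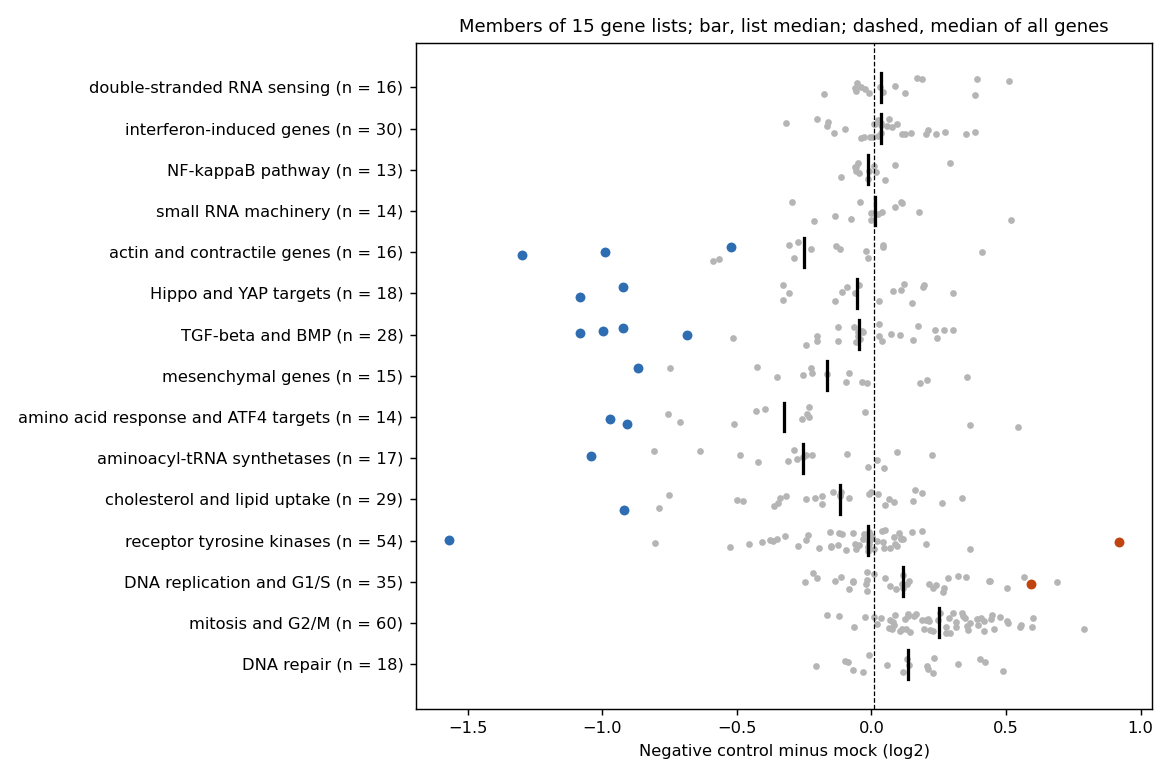
Each point is a measured gene of 1 of 15 lists, at its change, negative control minus mock (log2, x axis), with orange for genes that rose, blue for those that fell and grey for the rest. Black bars mark list medians, from -0.33 for amino acid response genes to 0.25 for mitosis genes, and the dashed line the median of all genes, 0.0076.

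No measured gene of the response to foreign RNA was called as a rise at 72 h. Of 16 sensors, adaptors and effectors of double-stranded RNA, 0 passed (limma), where 0.645% of all genes did. At an unadjusted p under 0.05 there were 3, all above 0, where 1643 of all 14884 genes passed, 823 of them above 0. Of the 16, 9 lay above 0 and the median was 0.036. RIGI, the sensor RIG-I, was at 4.01, 4.22 and 4.25 in mock and 4.57, 4.17 and 4.25 in the negative control (0.17 ± 0.11, 95% interval -0.09 to 0.42, adjusted p = 0.67), the only high array being negative control 1. IFIH1 (MDA5) and TLR3 were near the bottom of the scale, at 1.73, 1.87 and 1.84 against 1.74, 1.86 and 1.76 for IFIH1 (-0.02) and 1.97, 1.74 and 2.13 against 1.88, 2.10 and 2.00 for TLR3 (0.04). EIF2AK2, the kinase PKR, was well expressed and had 6.56, 6.32 and 6.68 against 6.56, 6.28 and 6.56 (-0.05, 95% interval -0.32 to 0.21). The largest differences were in the adaptors MYD88 (0.51, adjusted p = 0.28) and MAVS (0.39, adjusted p = 0.44), whose groups overlapped. IRF3, the factor that carries the signal to the interferon genes, was at 4.61, 4.78 and 4.94 against 5.21, 4.99 and 5.28, the 1 member with groups apart (0.38 ± 0.11, adjusted p = 0.20).

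Interferon-induced genes had no call either. Of 30 measured, 0 passed (limma), where 0.645% of all genes did. At an unadjusted p under 0.05 there were 2, both below 0, where 11% of all genes passed in either direction. Of the 30, 21 lay above 0, the median was 0.036 and changes ran from -0.32 to 0.38. IFIT1 was at 1.61, 1.93 and 1.93 in mock and 2.23, 1.93 and 1.93 in the negative control (0.20, adjusted p = 0.72), again high only on negative control 1. ISG15, a ubiquitin-like modifier, was at 5.60, 5.90 and 5.60 against 6.04, 6.14 and 5.63 (0.24, 95% interval -0.10 to 0.57, adjusted p = 0.64). The largest differences above 0 were in IFITM3 (0.38, adjusted p = 0.51) and IRF1 (0.35, adjusted p = 0.47), with groups that overlap. The negative control arrays lay above mock in 0 of the 30 and below in 3, where 6.21% and 5.78% of all genes did so. Of 13 NF-kappaB pathway genes 0 passed and 1 had an unadjusted p under 0.05 (median -0.015), TNIP1, an inhibitor of the pathway, being at 0.29 (adjusted p = 0.24) and ICAM1 at -0.12 (adjusted p = 0.71). Of 20 chemokines and cytokines CSF1 alone fell, and CCL2 was at 0.35 (adjusted p = 0.81). CXCL8, interleukin-8, was at 2.26, 1.97 and 1.88 against 1.95, 2.26 and 2.12 (0.08, adjusted p = 0.90). Only 4 of 16 listed interferons and receptors were measured: the receptor chains IFNGR1 and IFNGR2 and the kinases JAK1 and TYK2. Of these, TYK2 (0.12) and IFNGR1 (0.04) lay farthest from 0. No interferon on the list was analysed here, nor were the receptor genes IFNAR1, IFNAR2, IFNLR1 and IL10RB. IFNB1, OAS1, MX1 and IL6 were not analysed either. The upper bound for RIGI lies below the smallest rise called, 0.47, and that for ISG15, 0.57, above it. MYD88 (0.51 ± 0.17) and IFITM3 (0.38 ± 0.19) had larger differences with larger SEs, so larger rises are not excluded for such genes. A smaller response, or one before 72 h, was not tested.

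**Figure D5:**
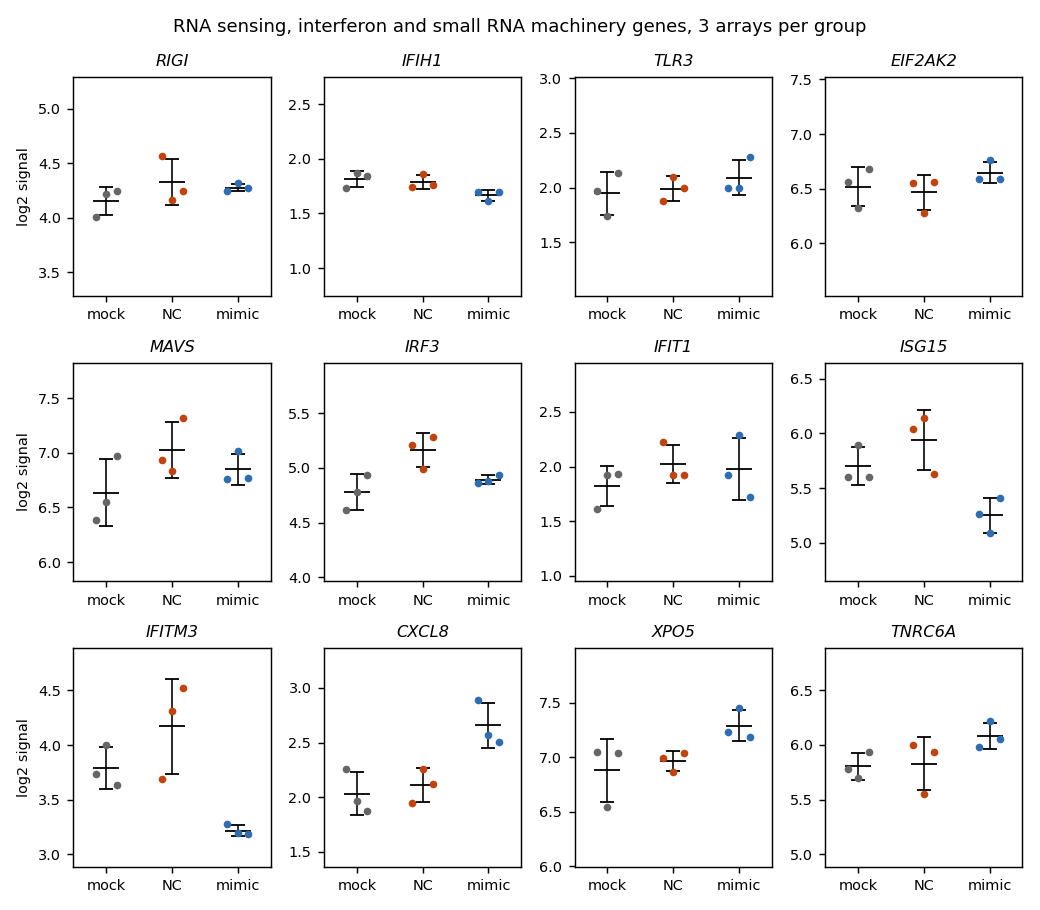
Levels (log2 signal) on each of the 9 arrays of 12 genes of RNA sensing, the interferon response and small RNA handling, with 3 points per group of mock, NC (negative control) and mimic, the bar at the mean and error bars of 1 SD. NC and mock points overlap for RIGI, IFIH1, TLR3 and EIF2AK2, and lie apart for IRF3 (4.99 to 5.28 against 4.61 to 4.94).

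The machinery that processes and uses small RNAs did not pass in any measured member (limma), where 0.645% of all genes passed. Of 14 genes, 1 had an unadjusted p under 0.05, where 11% of all genes did. In the list 7 lay above and 7 below 0, with a median of 0.012. TNRC6A, the GW182 protein that ties Argonaute to silencing, had group means of 5.80 and 5.83 (0.03 ± 0.13, adjusted p = 0.97). XPO5, which exports microRNA precursors from the nucleus, was at 0.09 (adjusted p = 0.88) and XRN1, an exonuclease of decapped messages, at -0.04 (adjusted p = 0.89). The decapping enzyme DCP2 was at 5.88, 6.09 and 5.87 against 6.65, 6.52 and 6.22, the 1 member with groups apart (0.52 ± 0.12, adjusted p = 0.10), and PAN2, of a deadenylase, was at -0.29 (adjusted p = 0.48). AGO1 to AGO4, DICER1 and DROSHA were not analysed here.

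Many other pathways had no call, where 0.645% of all genes were called. None passed in a list of 15 genes, 1 CDK inhibitor and 14 p53 targets (median -0.034), or among 19 regulators of cell death (0.010). Nor did any of 35 lysosome and autophagy genes (-0.057), 18 hypoxia and glycolysis genes (-0.042), 24 genes of the IGF axis and FOXO output (-0.024) or 21 of ribosome biogenesis (0.016). At an unadjusted p under 0.05 these lists had 6, 3, 8, 5, 7 and 4 genes, where 11% of all genes passed. Within the p53 group, GDF15, a stress-induced cytokine, was at -1.08 (adjusted p = 0.16) and SESN2, sestrin-2, at -0.77 (adjusted p = 0.22), both with groups apart and both known also as targets of ATF4. Of the cell death regulators, the survival proteins MCL1 (-0.47, adjusted p = 0.058) and BCL2 (-0.43, adjusted p = 0.28) lay lowest. CTSD (0.54, adjusted p = 0.18) and CTSO (0.54, adjusted p = 0.29), cathepsins, led the lysosome genes. EGLN1, the oxygen-sensing hydroxylase, was at -0.38 (adjusted p = 0.18) and TPI1, of glycolysis, at 0.38 (adjusted p = 0.24). PAPPA2, a protease of IGF binding proteins, was at -0.56 (adjusted p = 0.24), and of ribosome biogenesis DDX10 was at -0.47 (adjusted p = 0.20) and NOP2 at 0.43 (adjusted p = 0.30). Of 29 epithelial genes only CLDN1 fell (median 0.018), with desmoglein DSG2 at -0.44 (adjusted p = 0.14), and of 15 mesenchymal genes only TNC, though 12 of the 15 lay below 0 (median -0.17). VLDLR was the 1 fall in 29 cholesterol and lipid uptake genes, 20 of which lay below 0 (median -0.12), HMGCS1, of cholesterol synthesis, at -0.79 (adjusted p = 0.24). Cytosolic (53 genes) and mitochondrial (73 genes) ribosomal proteins had 0 calls and medians of 0.049 and 0.13, which turned to -0.035 and -0.020 without negative control 2. RPL39L (0.53, adjusted p = 0.20), RPL31 (-0.51, adjusted p = 0.50), MRPL53 (0.52, adjusted p = 0.23) and MRPS28 (0.52, adjusted p = 0.49) lay farthest from 0. Among guide RNAs of the nucleolus and Cajal bodies, SCARNA9 was at 0.83 (adjusted p = 0.44) and SCARNA11 at 0.55 (adjusted p = 0.75), with groups that overlap. No long intergenic noncoding RNA of 458 passed, with LINC00472 at -0.83 (adjusted p = 0.071) and LINC00052 at 0.83 (adjusted p = 0.23).

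The levels in mimic-transfected cells, which received a different small RNA at the same dose, are given beside these values. The comparisons share arrays and the spread, so they are not independent. MMP1 was at 3.62, 3.43 and 3.50 in the mimic cells, CD274 at 4.69, 4.27 and 4.69 and TAGLN at 4.19, 4.19 and 3.94, each below all mock arrays. TNC, at 5.06, 5.01 and 5.10, was lower still than in the negative control. MET, at 7.56, 7.62 and 7.59, lay between the groups and nearer to mock, and CLDN1, at 7.98, 7.78 and 7.63, overlapped mock. CRIM1 was at 8.24, 8.38 and 8.09, above mock, and GARS1 at 7.91, 8.01 and 7.73, within it. Among the rises, ENPP1 was at 6.77, 6.77 and 6.62, between the groups, ROR1 at 4.09, 4.33 and 4.02, as in mock, and PNMA1 at 6.06, 5.58 and 5.78 and PAQR5 at 4.98, 4.96 and 4.97, at or below mock. SCML2, at 5.90, 5.95 and 5.68, and HSPA1A, at 8.53, 8.32 and 8.53, were above mock with both small RNAs. The median mimic level minus mock was 0.45 for the mitosis list, -0.45 for the actin list and -0.10 for the amino acid list, beside 0.25, -0.25 and -0.33 for the negative control.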

How the data were processed

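Total RNA of 9 BT-549 samples (3 mock, 3 negative control, 3 mimic, grouped by treatment in the labels) was read on Affymetrix Human Gene 2.0 ST arrays. Per the labels' protocols, Trizol was used for extraction and labelling took 1 ug of RNA with a FlashTag biotin kit, which is in common use for small RNA, which could favour some transcripts. The deposited values are log2 signals that the authors made with RMA, per the submitters' processing notes, which subtracts background, evens out the arrays' distributions and sums probes. The software and version behind it were not given in the sources used here. RMA forces array distributions together, so a change shared by most genes would not be seen.

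Gene symbols came from the platform table, checked by gene ID against RefSeq (16098 of 16098 matched). No filter on signal was set. Changes were fitted with limma 3.58.1 in R 4.3.3 (lmFit, eBayes) with 1 mean per group over all 9 arrays (6 residual, 9.60 total degrees of freedom). Tests were two-sided, with Benjamini-Hochberg adjustment over 14884 genes. With 3 arrays a group, the number of arrays limits the precision. On simulated data with 14884 genes, 97 of 100 genes planted at a log2 change of 1 and 40 of 100 at 0.5 were recovered, with 9 false calls. The simulated noise was normal and independent between genes and arrays, with each gene's fitted spread. It held no shared array effects, pairing or tied values, so these rates need not hold for the real arrays.

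Genes were named by rule: the 15 largest rises and 15 largest falls among changed genes with groups apart, up to 4 changed members per list (or, with fewer than 2, the 2 largest differences), and fixed genes of RNA sensing and silencing. Others were singled out after their values were seen. A result on 1 group of genes, with its genes under this rule, is not reported here. The gene lists and comparisons were chosen with earlier results of these data known, and lists are described by counts and medians without a test. Replicate numbers were taken as pairing mock and negative control arrays from the correlation of same-numbered arrays, not from the labels. Promoters (250 bases before to 50 after the start) were found for 74 of 96 changed genes and searched with Python 3.11.15.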

Additional observations from a re-analysis of the deposited data

How the results depend on the processing

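Counts are given as changed, risen and fallen genes, with 96, 25 and 71 in the report. A second quantile normalization gave 136, 56 and 80 and kept 95 of the 96 calls, and centring gave 105. Genes at or above the median signal gave 150, of which 53 rose. The fit on the 6 arrays compared gave 18, 2 and 16 and kept 17 calls. The replicate block gave 61, 16 and 45 on all 9 arrays (54 calls kept) and 0, 0 and 0 on the 6 arrays alone with limma, where 1735 genes had an unadjusted p under 0.05. A block for mock and negative control only, with the mimic arrays in the fit, was chosen after seeing the data and gave 167, 53 and 114 (89 kept). A covariate made from the mean signal of snoRNAs and scaRNAs gave 153, with 49 rises (93 kept). Without mock 2 and negative control 2 together there were 28, 3 and 25. An adjusted p under 0.01 gave 20, 3 and 17. Leaving out each array in turn gave 21 to 112 changed genes, 5 to 22 that rose and 16 to 90 that fell, lowest without mock 1 and highest without mock 2. No named gene that passed the test changed sign under the alternatives run, while IFIH1, TLR3, EIF2AK2, CXCL8, TNRC6A, CCL2, TYK2 and IFNGR1, which did not pass, crossed 0 when single arrays were left out. The cause of these moves was not tested, and the alternatives with fewer arrays have less power by construction. The smallest changes called were 0.47 and -0.45, so smaller ones are limited by the number of arrays.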

Other observations

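Changed genes outside the lists, chosen after their values were seen, included several that act on membranes, and no count over all such genes was made. RTN4, a reticulon that curves the endoplasmic reticulum, had 6.63, 6.23 and 6.59 in mock and 5.77, 5.55 and 5.79 in the negative control and fell by 0.78 ± 0.12 (limma adjusted p = 0.021). SPCS3, a subunit of signal peptidase, fell by 0.92 ± 0.15 (6.39, 6.59 and 6.55 against 5.43, 5.95 and 5.39, adjusted p = 0.026). GOPC, a Golgi scaffold, fell by 0.76 (adjusted p = 0.017), and ESYT2, which tethers the endoplasmic reticulum to the plasma membrane, by 0.65 (adjusted p = 0.034). TRAPPC6B, of a vesicle tethering complex, rose by 0.61 ± 0.09 (4.73, 4.69 and 4.75 against 5.26, 5.52 and 5.23, adjusted p = 0.018), and STXBP3, a regulator of vesicle fusion, by 0.59 (adjusted p = 0.018). The call of RTN4 ended without any of the 6 arrays compared except mock 2 and without mimic 3 (adjusted p up to 0.11), and that of SPCS3 without any array but negative control 2 and mimic 1 (up to 0.10). GOPC lost its call without mock 1, mock 3 or negative control 1 or 2 (up to 0.094), ESYT2 without any array but mock 2 (up to 0.15), TRAPPC6B without mock 1 or 3 (up to 0.094) and STXBP3 without mock 3 or any negative control array (up to 0.071). With the replicate block on all 9 arrays TRAPPC6B (0.059), STXBP3 (0.059) and ESYT2 (0.092) did not pass.

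Of transcription factors, EOMES, a T-box factor better known from lymphocytes and early development, had 6.70, 6.60 and 6.52 in mock against 5.91, 5.91 and 5.95, and fell by 0.69 ± 0.09 (adjusted p = 0.012, or 0.080 without mock 1). RFXAP, part of the complex that switches on MHC class II genes, went from 4.72, 4.68 and 4.67 to 3.99, 3.86 and 4.15, a fall by 0.69 ± 0.09 (adjusted p = 0.012, or 0.078 without mock 1).

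Identical values recur in the deposited table. Of 14884 genes, 5793 (38.9%) had the same log2 signal on at least 2 of the 6 mock and negative control arrays, 28.2% of the genes at or above the median signal and 49.7% of those below. Among the 96 changed genes it was 3, namely ARHGAP42, KIF24 and EOMES. The groups of all 96 lay apart, so a tie between mock and negative control was not possible in them, while 4224 of all genes had one. The low count is thus partly set by the selection. Over all 9 arrays, which set the spread of the fit, 18 of the 96 and 8384 of the 14884 genes had a tie. Within the 3 mimic arrays 11 of the 96 had one, ENPP1, CD274, TAGLN, NPR3 and NPTX1 among them, and TMC7 had 1 value on all 3. What produced the ties was not tested.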
